A study of Mus musculus with 8 samples.

Results

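The genes described here are 9 transcripts that are commonly used to recognise monocytes recently recruited into a mouse tissue: *Ly6c2*, *Plac8*, *Chil3*, *F13a1*, *Vcan*, *S100a4*, *S100a6*, *S100a8* and *S100a9*. They were picked by symbol from the 55401 genes of the count table. Of these, 8 passed the filter on low counts (0.5 CPM or more in 1 library or more, CPM being a gene's count scaled to a common library total of 1000000) and were tested among 15202 genes, and *S100a9* did not pass.

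Classical monocytes leave the bone marrow through the chemokine receptor CCR2, carry the surface protein Ly6C, and differentiate in the tissue into macrophages, losing Ly6C as they do so. In the healthy liver most macrophages are resident Kupffer cells, which maintain themselves locally. In steatohepatitis the resident pool is partly replaced by monocyte-derived cells, and genes such as those above are used to tell the newcomers from the residents. S100 proteins are small calcium-binding proteins, and S100A8 and S100A9 pair to form calprotectin, which neutrophils and monocytes store in large amounts.

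Hepatic macrophages were isolated with an antibody to F4/80, a surface protein of mature mouse macrophages, and magnetic columns. Those from normal livers came from C57BL/6J wild-type mice on a standard diet, and those from steatotic livers from MC4R-KO mice, which lack the melanocortin 4 receptor and become obese, on a Western diet for 6 to 10 wk. Culture lasted 24 h in the presence of 500 µg/ml cholesterol crystals (CC) or of vehicle alone (Veh), giving 4 groups of 2 libraries each and 8 libraries in all. The study's methods describe male mice of matched age, 8 wk old when the Western diet of its longer feeding model began, with the knockout on the C57BL/6J background, and do not repeat the age for the donors of these cultures. The labels do not say whether libraries of 1 group came from separate mice or from pooled mice, and the isolation takes F4/80-positive cells of either origin, so p-values measure only the spread between these libraries. Genotype and diet differ together between the libraries labelled normal and steatotic and cannot be told apart.

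The targeted gene did not follow the labels in a simple way. For *Mc4r* the 4 libraries labelled normal held 0 counts, whereas the 4 labelled steatotic held 28, 22, 53 and 72, so every direction between livers given here rests on the labels. Totals ran from 58668655 to 74529462 counts per library, in which about 4 counts appear to stand for 1 sequenced fragment, and 3 fragments, taken here as the lowest level that can be told from none, corresponded to 0.161 to 0.205 CPM. Such limits cover counting error only. The 12 macrophage markers, all tested, summed to between 12866 and 19485 CPM, so the labelled cell type was well represented in every library. Singly, 9 of the 12 were called higher and 2 lower in steatotic than in normal Veh (median log2 fold change 0.55). Of all genes tested, 16.4% were called higher and 14.3% lower there. With CC 9 were called lower in either liver, compared with 5.54% of all genes tested in normal and 10.9% in steatotic macrophages. CC raised 0 of the 12 in normal and 1 in steatotic macrophages, compared with 6.27% and 12.0% of all genes tested.

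The 9 genes lie on 4 chromosomes of the mouse (GRCm38, the build of the files; GENCODE M21 annotation). The 4 S100 genes lie within 91.95 kb of chromosome 3: *S100a4* (ENSMUSG00000001020.8) at chr3:90603771-90606045, *S100a6* (ENSMUSG00000001025.8) at chr3:90612882-90624181 and *S100a8* (ENSMUSG00000056054.9) at chr3:90668978-90670035 on the plus strand, and *S100a9* (ENSMUSG00000056071.12) at chr3:90692632-90695721 on the minus strand, 22.6 kb beyond *S100a8*. *Chil3* (ENSMUSG00000040809.10) lies on the same chromosome at chr3:106147554-106167564, minus strand. *Plac8* (ENSMUSG00000029322.12) lies at chr5:100553725-100572245, minus strand. *F13a1* (ENSMUSG00000039109.16) and *Vcan* (ENSMUSG00000021614.16) share chromosome 13, at chr13:36867178-37050244 and chr13:89655312-89742509, both on the minus strand. *Ly6c2* (ENSMUSG00000022584.14) lies at chr15:75108158-75111970, minus strand.

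Some of these genes have near copies with which reads can be shared. Of the 50-base windows in *Ly6c2* transcripts, 14.4% also occur in another gene, most of them in *Ly6c1*. For *Chil3* the share was 26.9%, most of it with *Chil4*, and *Chil4* was listed at 0 in all 8 libraries. For *S100a4* it was 47.4%, all with the overlapping readthrough gene Gm42674, which had 0 counts in all 8 libraries. The transcripts of *S100a6*, *Plac8*, *Vcan*, *S100a8* and *S100a9* shared no such window with another gene. Reads that cannot be placed uniquely leave *Ly6c2* and *Chil3* less certain than the others.

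Promoters are shown for 4 of the genes: *S100a8* and *Vcan*, the only 2 tested members whose response to CC differed between livers, *S100a9*, the partner of *S100a8* that was almost unread, and *Plac8*, which differed widely between livers. Each runs 5′ to 3′ on the strand of its gene, from 250 bases before the RefSeq gene start to 50 after it, as 1 window of 300 bases from the GRCm38.p6 sequence. Capitals mark exact matches, on either strand, to the core motif of the myeloid factor PU.1 (GAGGAA), to a C/EBP motif (TTNNGNAA), to an AP-1 motif (TGANTCA) or to the TATA box (TATAAA).

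S100a8, chr3:90668821-90669120, plus strand: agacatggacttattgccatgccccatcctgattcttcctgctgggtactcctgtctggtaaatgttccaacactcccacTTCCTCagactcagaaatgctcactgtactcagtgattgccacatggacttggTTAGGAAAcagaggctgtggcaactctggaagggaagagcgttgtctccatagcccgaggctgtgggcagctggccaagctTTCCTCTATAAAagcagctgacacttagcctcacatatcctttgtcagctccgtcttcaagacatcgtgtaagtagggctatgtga

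S100a9, chr3:90695672-90695971, minus strand: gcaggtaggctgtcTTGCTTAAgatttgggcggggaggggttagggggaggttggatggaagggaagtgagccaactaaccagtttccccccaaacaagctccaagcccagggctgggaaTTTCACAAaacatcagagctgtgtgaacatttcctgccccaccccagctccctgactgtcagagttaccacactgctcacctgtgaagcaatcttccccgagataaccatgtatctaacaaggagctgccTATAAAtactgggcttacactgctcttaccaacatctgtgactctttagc

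Plac8, chr5:100572156-100572455, minus strand: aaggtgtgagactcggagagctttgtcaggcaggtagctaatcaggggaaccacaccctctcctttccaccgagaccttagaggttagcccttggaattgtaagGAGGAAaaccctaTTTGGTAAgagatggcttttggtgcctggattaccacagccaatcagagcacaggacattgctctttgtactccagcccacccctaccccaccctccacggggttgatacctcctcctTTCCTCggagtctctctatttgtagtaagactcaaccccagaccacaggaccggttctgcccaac

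Vcan, chr13:89742463-89742762, minus strand: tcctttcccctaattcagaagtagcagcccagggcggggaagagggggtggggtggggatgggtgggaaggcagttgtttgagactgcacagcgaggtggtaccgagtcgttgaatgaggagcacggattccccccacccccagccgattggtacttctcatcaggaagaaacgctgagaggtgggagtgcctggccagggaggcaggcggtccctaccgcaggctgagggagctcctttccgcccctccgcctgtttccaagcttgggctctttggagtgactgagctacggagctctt

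All 9 genes have a RefSeq promoter entry, and for those with several the one nearest the annotated gene start was used. The PU.1 core occurred in the promoters of 5 of the 9 genes (*Ly6c2*, *S100a4*, *F13a1*, *Plac8* and *S100a8*), compared with 28.3% of all 32851 mouse promoters of this length. The C/EBP motif occurred in 6 of 9 (*Ly6c2*, *Chil3*, *F13a1*, *Plac8*, *S100a8* and *S100a9*), compared with 40.7% of all. The TATA box occurred in 4 of 9 (*Chil3*, *S100a4*, *S100a8* and *S100a9*), compared with 13.6%, and the AP-1 motif in 0 of 9, compared with 7.81%. The *S100a8* promoter held 2 PU.1 cores, 1 C/EBP motif and 1 TATA box, its PU.1 core on the reverse strand directly preceding the TATA box. Those of *Vcan* and *S100a6* held none of the 4 motifs. These are letter matches, given as a description.

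The first question was how macrophages from steatotic livers differ from those of normal livers in these genes without crystals, after 24 h of culture with Veh. With Veh, 7 of the 8 tested genes were higher in steatotic than in normal macrophages and 1, *S100a8*, was lower. Across all genes tested, 16.4% were called higher and 14.3% lower in this comparison (adjusted p under 0.05, edgeR quasi-likelihood test over all 15202 genes), or 30.7% in either direction. Scaled to library totals alone, in place of the trimmed mean of M values (TMM), the split over all genes turned from 2489 higher and 2176 lower to 2210 higher and 2683 lower, and the 8 members were called as before, 7 higher and 1 lower. Both steatotic libraries were above both normal ones for 7 of the 8 genes and below them for 1, compared with 29.6% and 38.6% of all genes tested. The median log2 fold change was 2.90 over the 8 tested genes and -0.01 over all genes tested. *Chil3* passed the filter only through the steatotic libraries, where it is high, so it had to differ between livers and its tests between livers carry no weight. Of the 7 genes that passed in libraries of either label, 6 were called higher and 1 lower, with a median of 2.88. In bulk libraries of this kind, fewer cells of a type and less RNA per cell cannot be told apart.

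**Figure D1:**
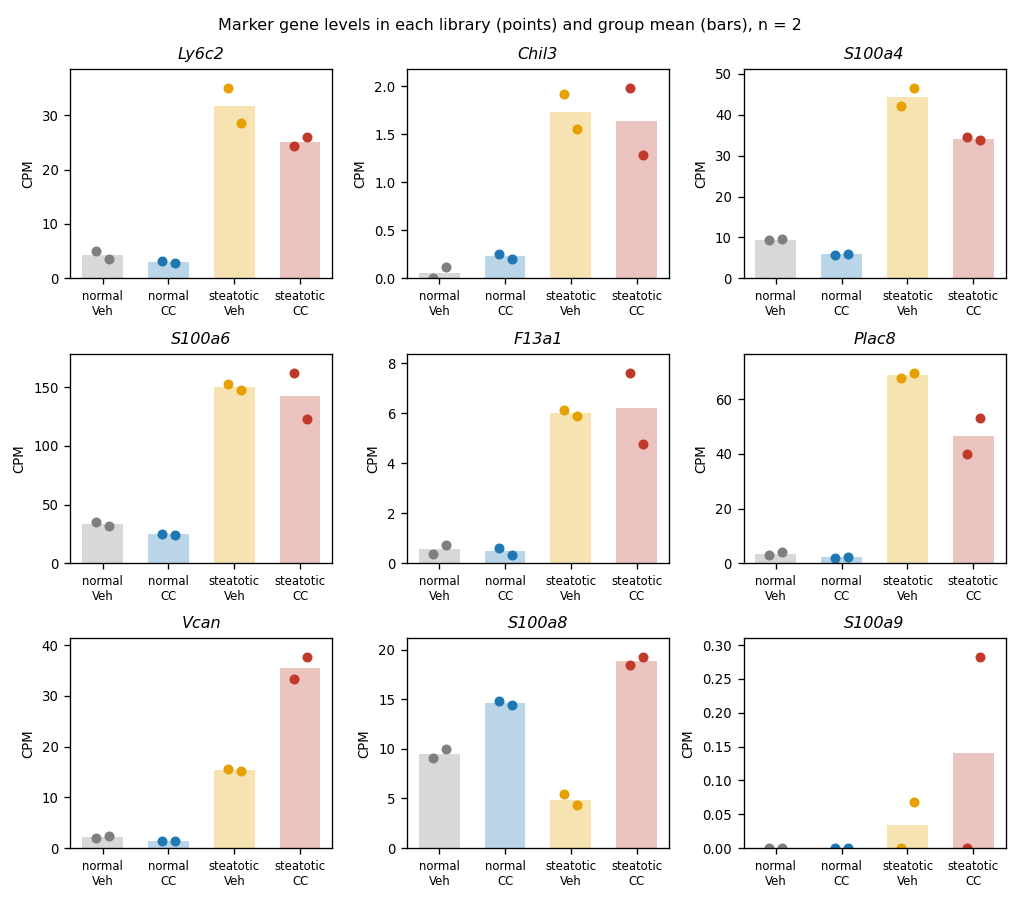
Level of each of the 9 marker genes in CPM (vertical axes, linear from 0, each panel with its own scale) in the 4 groups; points are the 2 libraries of a group and bars their mean. In 7 panels the 4 steatotic libraries stand above the 4 normal ones, *S100a8* instead follows CC, and *S100a9* reaches only 0.282 CPM in 1 library.

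*Ly6c2*, which encodes the Ly6C surface protein of classical monocytes, measured 5.11 and 3.56 CPM in the normal Veh libraries and 35.0 and 28.5 CPM in the steatotic Veh libraries. The lowest steatotic library lay far above the highest normal one, at a fitted log2 fold change of 2.92 ± 0.19 (SE; adjusted p = 3.48e-05). *Plac8*, a small cysteine-rich protein of myeloid cells, measured 3.0 and 4.05 CPM in normal Veh and 67.8 and 69.7 CPM in steatotic Veh. Its log2 fold change of 4.33 ± 0.20 (adjusted p = 1.41e-05), or 20.1-fold, was exceeded by only 0.717% of the genes tested. The ratio of *Plac8* to *Ly6c2* CPM was 0.587 and 1.14 in the 2 normal Veh libraries and 1.94 and 2.45 in the 2 steatotic Veh libraries, so *Plac8* differed between livers by more than *Ly6c2* did.

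*Chil3* and *F13a1* are scarcer. *Chil3*, a secreted chitinase-like lectin also called Ym1, had 0 and 8 counts in the normal Veh libraries, and 131 and 114 counts, 1.92 and 1.55 CPM, in the steatotic Veh libraries. The normal level was under the 3-fragment limit, so the fitted log2 fold change of 4.88 ± 0.85, given as a description, is loosely set, and without normal Veh replicate 2 it became 9.88. Taken as 61 against 2 fragments, the ratio was 29.4, with an exact 95% interval for counting error of 7.8 to 248. *F13a1*, the A chain of coagulation factor XIII that cross-links fibrin, measured 0.368 and 0.740 CPM in normal Veh and 6.15 and 5.87 CPM in steatotic Veh. Its log2 fold change was 3.49 ± 0.42 (adjusted p = 7.57e-04).

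*Vcan* encodes versican, a large proteoglycan that binds hyaluronan in the extracellular matrix. It measured 1.97 and 2.36 CPM in normal Veh and 15.5 and 15.2 CPM in steatotic Veh, a log2 fold change of 2.88 ± 0.12 (adjusted p = 3.15e-06). Its replicates were close, and the groups did not overlap.

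The S100 genes did not move together. *S100a4*, a calcium-binding protein linked to cell motility, measured 9.28 and 9.71 CPM in normal Veh and 42.2 and 46.6 CPM in steatotic Veh, a log2 fold change of 2.27 ± 0.08 (adjusted p = 1.65e-06). *S100a6*, its neighbour, measured 35.4 and 31.6 CPM in normal Veh and 153 and 148 CPM in steatotic Veh, a log2 fold change of 2.21 ± 0.14 (adjusted p = 7.07e-05). Between livers these 2 genes differed by like amounts, and the *S100a6* to *S100a4* ratio stayed between 3.17 and 4.71 in the 8 libraries.

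*S100a8*, the calprotectin subunit in the same cluster, was lower in steatotic Veh, at 5.44 and 4.29 CPM, than in normal Veh, at 9.08 and 9.94 CPM. The log2 fold change was -0.92 ± 0.13 (adjusted p = 0.0013), or 1.89-fold lower, and the groups did not overlap. It was the only tested member called lower, and it stayed lower, with an adjusted p under 0.05, in all 18 alternatives run, where the log2 fold change ran from -1.10 to -0.76. *S100a9*, the other subunit, had 0 counts in 6 of the 8 libraries. The exceptions were steatotic Veh replicate 2, with 5 counts (0.0680 CPM), and steatotic CC replicate 2, with 21 counts (0.282 CPM). In that last library *S100a8* had 1432 counts, so the partner transcripts were far from equal in number. A count of 0 allows a level of up to 0.161 to 0.205 CPM, depending on the library.

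With CC, 7 of the 8 tested genes were again higher in steatotic than in normal macrophages and 0 were lower, compared with 15.9% and 12.9% of all genes tested (28.8% in either direction). Without *Chil3*, 6 of 7 were higher. Both steatotic CC libraries were above both normal CC ones for all 8, compared with 30.8% of all genes tested, and below them for 0, compared with 34.7%. *Vcan* differed the most, at 33.4 and 37.6 CPM in steatotic CC and 1.36 and 1.43 CPM in normal CC, a log2 fold change of 4.69 ± 0.13 (adjusted p = 7.73e-07), or 25.8-fold. *Plac8* followed at a log2 fold change of 4.48 ± 0.21 (adjusted p = 1.47e-05), then *F13a1* at 3.72 ± 0.43, *Ly6c2* at 3.12 ± 0.19, *S100a4* at 2.57 ± 0.08 and *S100a6* at 2.56 ± 0.14. *Chil3*, again present above the filter only in the steatotic libraries, had a log2 fold change of 2.84 ± 0.73 (adjusted p = 0.0247, a description), from 1.98 and 1.29 CPM in steatotic CC against 0.256 and 0.205 CPM in normal CC.

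The *Chil3* call with CC depended on single libraries. Its adjusted p was 0.103 without normal CC replicate 1, 0.125 without normal CC replicate 2, 0.103 without steatotic CC replicate 1 and 0.0521 without steatotic CC replicate 2. *S100a8* was not called, with a log2 fold change of 0.39 ± 0.12 (adjusted p = 0.0535), although its libraries did not overlap. It was called in 5 of its 18 alternatives, among them those without steatotic Veh replicate 1 (adjusted p = 0.0276) and without steatotic Veh replicate 2 (0.0251). The comparisons with Veh and with CC use different libraries but 1 shared estimate of the spread.

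Over both treatments, each of the 4 steatotic libraries was higher than each of the 4 normal libraries for 7 of the 8 tested genes (6 of 7 without *Chil3*), compared with 13.5% of all genes tested. The exception was *S100a8*, whose order ran with the treatment. Its levels were 18.4 and 19.2 CPM in steatotic CC, 14.9 and 14.4 CPM in normal CC, 9.08 and 9.94 CPM in normal Veh and 5.44 and 4.29 CPM in steatotic Veh.

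**Figure D2:**
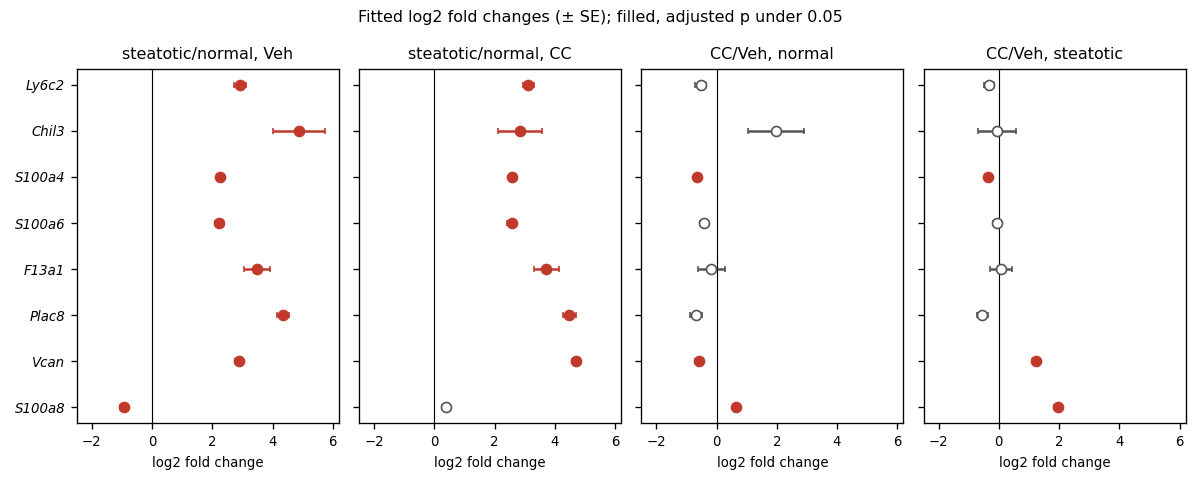
Fitted log2 fold change (horizontal axes) with its SE for the 8 tested genes in 4 comparisons; filled points have an adjusted p under 0.05 over all genes tested. Between livers 7 genes lie to the right of 0 with either treatment, whereas CC moved *Vcan* and *S100a8* upwards in steatotic macrophages, by 1.22 and 1.97.

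The second question was what CC did to these genes within each liver. In normal macrophages CC raised 1 of the 8 tested genes and lowered 2, compared with 6.27% of all genes tested called higher and 5.54% called lower (11.8% in either direction). Scaled to library totals alone, the split over all genes turned from 953 higher and 842 lower to 808 higher and 1110 lower. Both CC libraries were below both Veh libraries for 5 of the 8 genes, compared with 32.9% of all genes tested, and above them for 2, compared with 22.8%.

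*S100a4* fell in normal macrophages from 9.28 and 9.71 CPM with Veh to 5.69 and 6.03 CPM with CC, a log2 fold change of -0.66 ± 0.08 (adjusted p = 0.00206), and this call was kept in all 18 alternatives. *Vcan* fell from 1.97 and 2.36 to 1.36 and 1.43 CPM, a log2 fold change of -0.59 ± 0.13 (adjusted p = 0.022). This call was less secure: the adjusted p was 0.101 without normal Veh replicate 2, 0.112 without normal CC replicate 1, 0.0766 without normal CC replicate 2, 0.187 with the normal libraries fitted alone and 0.139 with counts divided by 4. *S100a8* rose from 9.08 and 9.94 to 14.9 and 14.4 CPM, a log2 fold change of 0.66 ± 0.13 (adjusted p = 0.0145). Its adjusted p was 0.0858 without normal Veh replicate 1, 0.0745 without normal CC replicate 1 and 0.0592 without normal CC replicate 2.

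The other genes were not called in normal macrophages. *Plac8* measured 3.0 and 4.05 CPM with Veh and 1.95 and 2.28 CPM with CC (log2 fold change -0.70 ± 0.20, adjusted p = 0.0728), and *Ly6c2* measured 5.11 and 3.56 CPM with Veh and 3.12 and 2.74 CPM with CC (-0.53 ± 0.19, adjusted p = 0.132). *S100a6* measured 35.4 and 31.6 CPM with Veh and 25.2 and 24.1 CPM with CC (-0.41 ± 0.13, adjusted p = 0.116). *Plac8* and *S100a6* were called with 5 of 18 alternatives each, which include the fits without steatotic CC replicate 1 (adjusted p = 0.0417 and 0.0117) and without steatotic CC replicate 2 (0.0410 and 0.0110). *Plac8* was also called without normal Veh replicate 1 (0.0499), and *Ly6c2* without normal Veh replicate 2 (0.0350). *F13a1* overlapped between treatments, and *Chil3* stayed near the limit of 3 fragments, with 0, 8, 16 and 12 counts in the 4 normal libraries; it was called without normal Veh replicate 2 alone (log2 fold change 6.98, adjusted p = 0.0181).

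In steatotic macrophages CC raised 2 of the 8 tested genes and lowered 1, compared with 12.0% of all genes tested called higher and 10.9% called lower (22.9% in either direction). The split over all genes was 1821 higher and 1653 lower, and 1723 and 1792 when scaled to library totals alone. Both CC libraries were above both Veh libraries for 2 of the 8 genes and below them for 3, compared with 29.1% and 32.6% of all genes tested. *S100a8* rose from 5.44 and 4.29 CPM to 18.4 and 19.2 CPM, a log2 fold change of 1.97 ± 0.13 (adjusted p = 4.02e-05), or 3.91-fold. *Vcan* rose from 15.5 and 15.2 CPM to 33.4 and 37.6 CPM, a log2 fold change of 1.22 ± 0.11 (adjusted p = 1.76e-04), or 2.34-fold. Both rises were called in all 18 alternatives. *S100a4* fell from 42.2 and 46.6 CPM to 34.5 and 33.8 CPM, a log2 fold change of -0.36 ± 0.08 (adjusted p = 0.0139). That fall was not called without steatotic Veh replicate 2 (adjusted p = 0.0939), without steatotic CC replicate 1 (0.0566) or without steatotic CC replicate 2 (0.0697).

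The remaining genes were not called in steatotic macrophages. *Plac8* measured 67.8 and 69.7 CPM with Veh and 40.1 and 53.0 CPM with CC (log2 fold change -0.55 ± 0.17, adjusted p = 0.0666). Its libraries did not overlap, and it was called in 6 of 18 alternatives, among them those without normal Veh replicate 1 (adjusted p = 0.0407), without normal Veh replicate 2 (0.0407) and without steatotic CC replicate 2 (0.0324). *Ly6c2* measured 35.0 and 28.5 CPM with Veh and 24.3 and 25.9 CPM with CC (-0.32 ± 0.17, adjusted p = 0.253). *S100a6*, *F13a1* and *Chil3* overlapped between treatments, and in each of them the 2 CC libraries were farther apart than the 2 Veh libraries: *S100a6* measured 163 and 123 CPM with CC, *F13a1* 7.62 and 4.78 CPM and *Chil3* 1.98 and 1.29 CPM.

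Whether CC acted differently in the 2 livers was tested directly as the difference between both responses. It was called for 2 of the 8 tested genes, both with the larger response in steatotic macrophages, compared with 1.95% of all genes tested called in that direction and 1.27% in the other (3.22% in either). For *Vcan* the responses were -0.59 in normal and 1.22 in steatotic macrophages on the log2 scale, a difference of 1.82 ± 0.17 (adjusted p = 0.00266). For *S100a8* they were 0.66 and 1.97, a difference of 1.31 ± 0.18 (adjusted p = 0.0101). In the 17 alternatives that could be fitted, the difference ran from 1.68 to 1.93 for *Vcan* and from 1.15 to 1.48 for *S100a8*, with an adjusted p under 0.05 each time.

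The other 6 genes gave differences that were not called. They were 0.30 ± 0.11 for *S100a4* (adjusted p = 0.282), 0.35 ± 0.19 for *S100a6*, 0.21 ± 0.26 for *Ly6c2*, 0.15 ± 0.26 for *Plac8*, 0.24 ± 0.57 for *F13a1* and -2.04 ± 1.12 for *Chil3*. The *Vcan* to *Plac8* ratio of CPM shows the change within a library: it was 0.229 and 0.218 in steatotic Veh and 0.832 and 0.709 in steatotic CC, but 0.656 and 0.582 in normal Veh and 0.697 and 0.627 in normal CC. The *S100a8* to *Ly6c2* ratio was 1.78 and 2.79 in normal Veh, 4.75 and 5.26 in normal CC, 0.156 and 0.151 in steatotic Veh and 0.757 and 0.740 in steatotic CC.

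To compare the genes with one another, CPM was divided by the length of the annotated exons. In normal Veh the highest levels were those of *S100a6* (24.5 ± 1.97 CPM per kb, SD, n = 2), *S100a4* (16.3 ± 0.522) and *S100a8* (13.7 ± 0.872), followed by *Plac8* (2.21 ± 0.464) and *Ly6c2* (1.58 ± 0.400). *Vcan* (0.150 ± 0.0189) and *F13a1* (0.0822 ± 0.0390) were lower still, and *Chil3* (0.0370 ± 0.0523) overlapped with *F13a1* above it and with *S100a9*, at 0, below it. In steatotic Veh the order was *S100a6* (109.8 ± 2.46), *S100a4* (76.0 ± 5.32), *Plac8* (43.2 ± 0.872), *Ly6c2* (11.6 ± 1.68), *S100a8* (7.02 ± 1.17), *Vcan* (1.06 ± 0.0137) and *Chil3* (1.06 ± 0.159), the last pair overlapping, and then *F13a1* (0.892 ± 0.0290) and *S100a9*. Scaled to the longest transcript, *F13a1* (1.52 ± 0.0494) stood above *Vcan* (1.24 ± 0.0159) and *Chil3* (1.13 ± 0.169) in steatotic Veh, and *Ly6c2* overlapped with *S100a8*. With that length *S100a8* and *S100a4* overlapped in normal Veh.

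With CC, *S100a8* moved up this order. In normal CC it stood first at 21.1 ± 0.423 CPM per kb, above *S100a6* at 18.0 ± 0.571, though scaled to the longest transcript *S100a6* stood first. In steatotic CC it stood at 27.1 ± 0.810 and overlapped with *Plac8* at 29.3 ± 5.71, while *S100a6* (104.5 ± 20.3) and *S100a4* (58.5 ± 0.892) stayed above both; *Chil3* (1.00 ± 0.301) and *F13a1* (0.920 ± 0.299) also overlapped. With the annotated exon length, neighbours not named as overlapping at that length were apart in both libraries of the group.

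**Figure D3:**
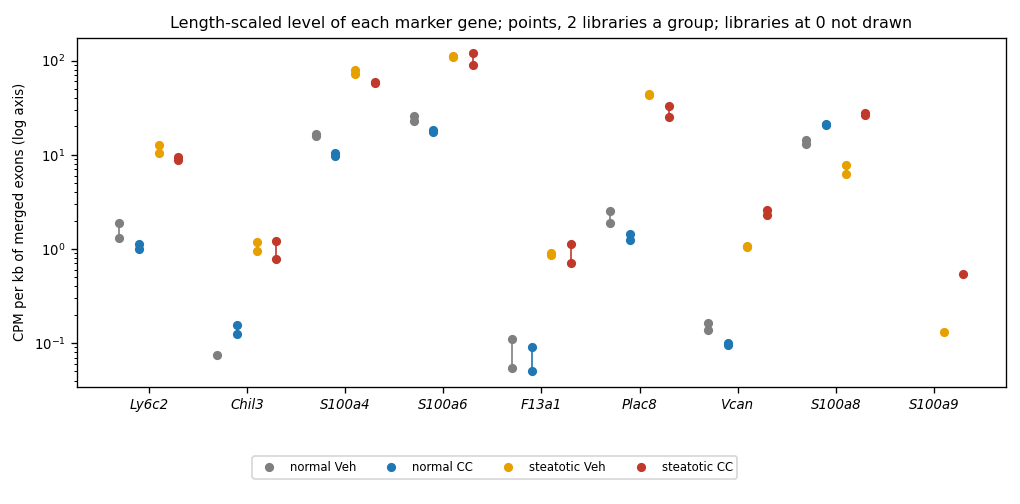
CPM per kb of annotated exons (vertical axis, log scale) for each gene; the points are the 2 libraries of a group, joined by a line, and libraries at 0 are not drawn. *S100a6* and *S100a4* lead in steatotic macrophages, and the *S100a8* points run from 6.19 to 27.7 CPM per kb with CC above Veh in either liver.

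Other genes of classical monocytes were taken from a list of 20. With Veh, 11 of the 20 were called higher and 4 lower in steatotic macrophages, compared with 16.4% and 14.3% of all genes tested, with a median log2 fold change of 0.64, compared with -0.01, and a range over the list from -1.10 to 4.19. The 4 most abundant were the chemokine gene *Ccl9* (0.83, called higher), *Ms4a6c* (1.22, called higher), *Smpdl3a* (0.48, called higher) and *Msrb1* (-0.52, called lower). *Ccr2*, the receptor through which monocytes leave the marrow, measured 0.737 and 0.876 CPM in normal Veh and 8.78 and 8.67 CPM in steatotic Veh, a log2 fold change of 3.48 (adjusted p = 1.50e-05). With CC it fell in steatotic macrophages to 4.79 and 5.43 CPM (log2 fold change -0.75, adjusted p = 0.0192), and the difference between its CC responses was not called (adjusted p = 0.141).

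Of 20 ligands and receptors of monocyte recruitment, 19 were tested, and 13 were called higher and 1 lower in steatotic Veh, compared with 16.4% and 14.3% of all genes tested, with a median log2 fold change of 0.94. The integrin genes *Itgb2* and *Itgb1* had log2 fold changes of 0.27 and 0.38, both called higher, whereas the growth factor receptor gene *Csf1r* was not called (0.08, adjusted p = 0.418). Of 13 genes of nonclassical monocytes 4 were called higher and 4 lower, and of 15 resident Kupffer cell markers 5 were called higher and 5 lower, with medians of 0.22 and -0.03. These counts too stand beside 16.4% and 14.3% of all genes tested. Of the nonclassical genes 2 passed the filter only through the steatotic libraries, and the median of the other 11 was 0.09.

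**Figure D4:**
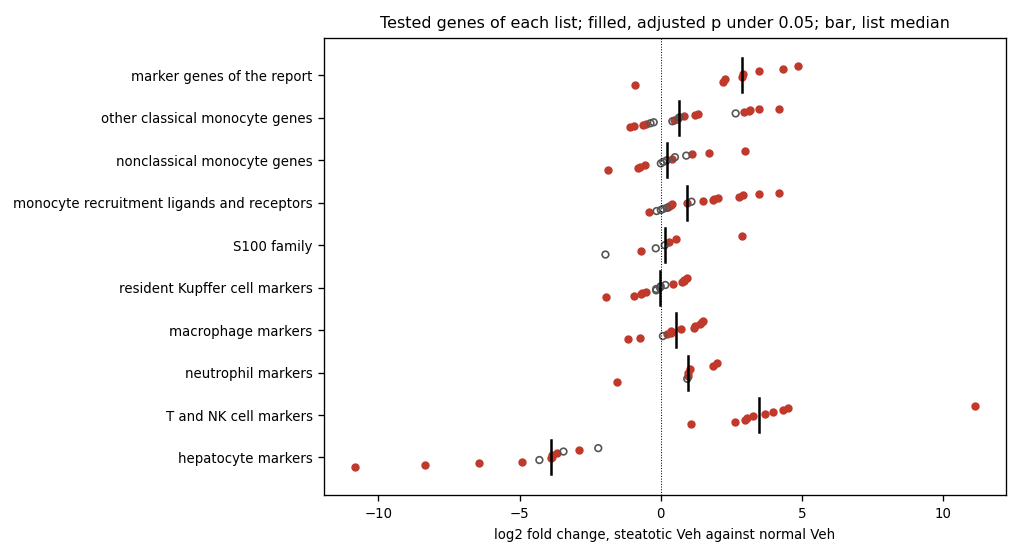
Log2 fold change of steatotic Veh against normal Veh (horizontal axis) for the tested genes of 10 lists; filled points have an adjusted p under 0.05 over all genes tested, and the vertical bar is the median of the list. The median of the 8 tested marker genes is 2.90, that of other classical monocyte genes 0.64 and that of Kupffer cell markers -0.03. Most T and NK cell markers and hepatocyte markers passed the filter in the libraries of 1 label only, so their points describe and test nothing.

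Close relatives of the members did not all share their pattern. *Ly6c1*, the copy next to *Ly6c2*, measured 0.354 and 0.151 CPM in normal Veh and 0.542 and 2.57 CPM in steatotic Veh and was not called (adjusted p = 0.175). Among other S100 genes, 7 of 14 were tested: *S100a11* had a log2 fold change of 2.86 between steatotic and normal Veh, *S100a10* of 0.56 and *S100a13* of 0.31, all called higher, and *S100a1* of -0.70, called lower. These calls stand beside 16.4% of all genes tested called higher and 14.3% lower. *Tgm2*, a transglutaminase related to *F13a1*, was called higher at 0.54.

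Receptors for the secreted members were also examined, 8 of 9 being tested. *Cd14*, a co-receptor of the toll-like receptor TLR4 to which S100A8 binds, was set beside *S100a8* after its values were seen. It was lower in steatotic than in normal Veh (log2 fold change -1.10, adjusted p = 1.48e-05), rose with CC in normal macrophages (0.54, adjusted p = 0.00146) and rose with CC in steatotic ones (1.08, adjusted p = 2.21e-05). These 3 directions were also those of *S100a8*. With CC it was lower in steatotic than in normal macrophages (-0.56, adjusted p = 4.79e-04), where *S100a8* had a log2 fold change of 0.39 and was not called. *Cd44*, a receptor for hyaluronan, was not called in any comparison. *Cd36* was called higher in steatotic Veh (0.60) and *Bsg* was not called.

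Markers of some other cells moved with the liver label. For each list below, the counts called in steatotic against normal Veh stand beside 16.4% of all genes tested called higher and 14.3% lower. Of the 10 markers of T and NK cells, 9 passed the filter only through the steatotic libraries and so had to differ. The summed level of the 10 was 2.20 to 2.58 CPM in normal Veh, 1.79 to 2.20 in normal CC, 20.1 to 23.3 in steatotic Veh and 17.9 to 18.3 in steatotic CC. Hepatocyte markers went the other way. Of the 12 tested, 9 passed only through the normal libraries, and the other 3 were all called lower, with sums over the list of 71.8 to 74.3 CPM in normal Veh, 63.1 to 71.8 in normal CC, 2.72 to 3.41 in steatotic Veh and 3.16 to 3.77 in steatotic CC. Albumin (*Alb*) alone measured 49.4 and 48.1 CPM in normal Veh and 1.92 and 1.24 CPM in steatotic Veh. Of 12 markers of stellate cells and fibroblasts, cells that also make versican, 4 were tested and 3 were called higher, with sums of 190.1 to 198.5 CPM in normal Veh, 128.5 to 181.9 in normal CC, 298.9 to 309.9 in steatotic Veh and 316.5 to 348.5 in steatotic CC. Most of each sum came from *Ecm1* and, in steatotic CC, from the proteoglycan gene decorin (*Dcn*), which measured 2.14 and 2.07 CPM in normal Veh, 7.0 and 5.69 in normal CC, 20.8 and 17.4 in steatotic Veh and 135.0 and 107.9 in steatotic CC. The collagen genes *Col1a1*, *Col1a2* and *Col3a1* and the stellate cell markers *Lrat* and *Des* did not pass the filter.

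Of 9 markers of B cells and plasmacytoid dendritic cells 7 were tested, and 1 was called higher and 0 lower (median log2 fold change 0.23). Of these 7, 2 passed the filter only through the normal libraries, and 1 of the other 5 was called higher (median 0.34). Of 10 dendritic cell markers 8 were tested, and 3 were called higher and 2 lower (median -0.002). Without *Flt3*, which passed the filter only through the normal libraries, 3 of 7 were called higher and 1 lower (median 0.23). Of 9 eosinophil markers 3 were tested, and 2 were called higher and 0 lower, with sums of 43.0 to 43.1 CPM in normal Veh, 30.6 to 30.8 in normal CC, 80.0 to 83.4 in steatotic Veh and 46.3 to 49.0 in steatotic CC. Of 10 endothelial markers 8 were tested, and 4 were called higher, among them *Pecam1* (1.91) and *Kdr* (1.58), and 1 lower. Their sums were 159.9 to 170.0 CPM in normal Veh, 189.8 to 191.5 in normal CC, 260.0 to 267.3 in steatotic Veh and 234.8 to 248.3 in steatotic CC. Of 10 cholangiocyte and mesothelial markers 8 were tested, and 5 were called higher and 0 lower, with sums of 40.5 to 43.8, 52.8 to 55.5, 92.5 to 104.2 and 358.2 to 391.2 CPM in the same order. Osteopontin (*Spp1*), which macrophages also express, made up most of the last sum, at 339.7 and 316.2 CPM in steatotic CC. The part of these cells in the differences of the 7 higher genes, or in the rise of *Vcan* with CC, was not tested.

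Neutrophils, which also carry *S100a8* and *S100a9*, were examined with 22 markers, of which 7 passed the filter. In steatotic Veh 5 of the 7 were called higher and 1 lower, compared with 16.4% and 14.3% of all genes tested, and the summed level was 145.9 to 146.4 CPM in normal Veh, 158.0 to 162.3 in normal CC, 288.0 to 292.3 in steatotic Veh and 419.9 to 420.5 in steatotic CC. Most of that sum came from *Mmp8* and *Csf3r*. *Lcn2* was called higher in steatotic Veh (1.99) and *Mmp9* lower (-1.53). The defining marker *Ly6g* was at 0 counts in all 8 libraries, and between 7 and 10 of the 22 markers were at 0 in both libraries of a group. *Mmp9* stood, in CPM, at 4.87 and 6.02 CPM in normal Veh, 12.6 and 12.7 in normal CC, 1.92 and 1.73 in steatotic Veh and 7.21 and 9.03 in steatotic CC, so that it was lower in steatotic than in normal macrophages with Veh, like *S100a8*, but also with CC (log2 fold change -0.62, adjusted p = 0.0238), unlike *S100a8*. Its difference between CC responses was not called (adjusted p = 0.0942). The part of neutrophils in the values of *S100a8* was not tested.

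For each tested member the 3 genes with the most similar log2 CPM over the 8 libraries were sought among the 12582 genes with a mean of at least 1 CPM. The 8 libraries fall into 2 liver labels, and all genes of a library share its depth, so the Pearson r values are a description. The genes found for *Plac8* included *Ms4a4a* (r = 0.999) and *Stat2*. *S100a4* was most like *Msr1* (0.998), *Sirpb1b* and *Emilin2*, and *S100a6* most like *Steap3* (0.998), *Lgals1* and *Elk3*. *Ly6c2* was most like *Snapc5* (0.996), A630012P03Rik and Rpl30-ps9, *F13a1* most like AC167036.2 (0.995), *Rgs16* and *Timp1*, and *Chil3* most like *Gpr31a* (0.990), *Myo9b* and *Nisch*. *Vcan* was most like *Saa3* (0.996), *Itgad* and *Il3ra*, and *S100a8* most like *Nhlrc1* (0.993), *Trim13* and *Dcbld2*. No gene was named for more than 1 member.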

How the data were processed

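Poly(A) RNA of cultured hepatic macrophages was sequenced in 8 libraries (150-base paired reads) with a directional kit. Per the labels and the study's methods, the authors used fastp for trimming, HISAT2 for alignment to mm10 and StringTie to estimate gene levels (versions not given in the sources used here). The deposited values are expected counts per gene, whole numbers that are not normalized, in a table of 55401 genes. The excess of multiples of 4 among low counts (35.0 to 36.5% of values from 1 to 20) was read as about 4 counts per fragment, an inference from the values.

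Libraries were grouped by their titles. The 15202 genes that reached 0.5 CPM in 1 library or more were fitted over all 8 libraries with 4 group means in edgeR 4.0.16 (R 4.3.3): TMM factors (0.981 to 1.03), robust glmQLFit, glmQLFTest and Benjamini-Hochberg adjustment over these genes, called at 0.05, with 4 residual degrees of freedom. The 5 comparisons were steatotic against normal with Veh and with CC, CC against Veh in each liver, and the difference between both CC responses. Alternatives were DESeq2 1.42.0, other scalings, filters and prior counts, a replicate block, fits on fewer libraries, counts divided by 4 and leaving out each library. CPM in the text is of the library total.

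Replicate numbers were not treated as pairs. Replicates of a group differed by more than sampling noise. The directional kit was used, but whether counting used the strand is not given; the genes antisense to *F13a1* had 0 counts, and the one antisense to *Vcan* 19 to 145. Members of the gene lists, and the 9 genes themselves, were chosen with earlier results of these data known. All 9 members are named with every library; of other lists, up to 4 genes of highest mean CPM, relatives of members, the receptor genes *Ccr2*, *Tlr4* and *Cd44*, and *Mc4r*; and for each member its 3 most similar genes. A result that these rules would name is not reported here. *Mmp9* and *Cd14* were set beside *S100a8*, and *Ly6d*, the collagen genes, *Lrat* and *Des* were named, after their values were seen. Exon lengths are from GENCODE M21 (55141 of 55401 genes matched) and promoters from RefSeq (GRCm38.p6).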

Additional observations from a re-analysis of the deposited data

Results flagged for a closer look

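The response to CC differed between steatotic and normal macrophages in 10 of 47 tested members, list genes and relatives named in this report. Of all genes tested, 3.22% were called. The difference was tested directly (edgeR, adjusted over all genes tested, n = 2 libraries a group). Most of the 47 were named for abundance or relation to a member, and some after their values were seen. Other list genes with a called difference are not named, so this count describes the named genes only. Over all 187 tested list genes other than the members, most of them not named, the difference was called higher for 17 and lower for 9. In *Vcan* the response was higher by 1.82 on the log2 scale in steatotic macrophages (adjusted p = 0.00266), falling in the normal libraries and rising in the steatotic ones. In *S100a8* it was higher by 1.31 (adjusted p = 0.0101), rising in both. Of the other genes, the difference was 0.67 for *Mmp8* (adjusted p = 0.00412), 0.54 for *Cd14* (0.0203), 0.36 for *Msrb1* (0.0156) and 0.30 for *S100a10* (0.0434), each higher in steatotic macrophages. It was -0.42 for *Tgm2* (0.00576), which rose with CC in normal macrophages and fell in steatotic ones, -0.35 for *Smpdl3a* (0.0265), which fell in both, and -1.20 for *Pecam1* (0.00368). It was 1.78 for *Spp1* (0.00573). Of the 24 genes chosen for their likeness to a member it was called for 2, at 2.07 for *Dcbld2* (like *S100a8*) and 0.77 for *Saa3* (like *Vcan*); that choice used the same libraries, so these are descriptions. Those of *Vcan*, *S100a8*, *Mmp8*, *Tgm2*, *Pecam1* and *Spp1* were called in all 17 alternatives that could be fitted. The others were called in 14 for *Msrb1*, 13 for *Cd14*, 11 for *Smpdl3a*, 11 for *Saa3*, 10 for *Dcbld2* and 7 for *S100a10*, and that of *S100a10* was lost whichever library was left out.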

How the results depend on the processing

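Of the results for the 8 tested members, none changed direction while called in any alternative, and 378 of 391 values from the 10 alternatives other than leaving out a library, and 295 of 320 from leaving out a library, stayed on the same side of the threshold. With CC in normal macrophages 3 members were called, and 5 with DESeq2 and 5 with the replicate block; *Plac8* and *S100a6* were the added ones. Differences between the replicates of a group were nearly uncorrelated between groups (correlations from -0.004 to 0.060). Taken over all genes tested, scarce ones included, these values cannot tell whether libraries of the same number shared mice. The block gave 4371, 1545, 3237, 400 and 4067 genes called in place of 4665, 1795, 3474, 490 and 4384, for steatotic against normal with Veh, CC in normal, CC in steatotic, the difference and steatotic against normal with CC. For the difference DESeq2 called 737 genes. Leaving out 1 library in turn, where the lone library of its group is assumed to vary like the others, gave 1 to 5 members called with CC in normal (1 without either normal CC library, 5 without either steatotic CC library), 2 to 4 with CC in steatotic, 6 to 8 for steatotic against normal with CC, and 8 with Veh and 2 for the difference each time. Genes called then ran from 3407 to 4568, 1020 to 1761, 2339 to 3344, 298 to 427 and 3113 to 4258 in the order above. The genes called with CC in normal fell to 1083 without normal Veh replicate 1, 1020 without normal CC replicate 1 and 1095 without normal CC replicate 2, and those for the difference to 307 and 314 without these CC libraries and 298 without steatotic Veh replicate 2. Leaving out a library removes a degree of freedom; otherwise the cause was not tested. TMM scaling moved 1 of 36 group levels beyond its SD, and the longest transcript moved 11 of 36 places in the order of levels. *Chil3* lay below or near the limit of 3 fragments in the normal libraries. *S100a9* lay below it in every library except steatotic CC replicate 2.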

Other observations

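Some relatives and receptors of the marker genes gave values that belong in no comparison above. *Chil1*, a chitinase-like gene related to *Chil3*, was at 0 counts in the 4 libraries labelled normal and measured 8.69 and 8.29 CPM in steatotic Veh and 13.5 and 14.3 CPM in steatotic CC. Of the Ly6 family, 6 of 13 genes were tested, 2 of them passing the filter only through the steatotic libraries and 1 only through the normal ones. The other 3, *Ly6a* (log2 fold change 2.49), *Ly6i* (1.76) and *Ly6e* (0.48), were called higher in steatotic than in normal Veh. Of all genes tested, 16.4% were called higher and 14.3% lower in this comparison. *Ly6d*, which passed the filter only through the normal libraries, measured 0.567 and 0.589 CPM in normal Veh and had 0 counts in both steatotic Veh libraries. *Tlr4* differed by more between replicates than between groups with CC: it measured 21.8 and 179.1 CPM in the normal CC libraries and 201.7 and 26.4 CPM in the steatotic CC libraries, against 241.8 to 293.5 CPM in the 4 Veh libraries. Single T and NK cell genes were low everywhere, the most abundant being *Nkg7*, at 0.113 to 0.317 CPM in the normal libraries and 3.39 to 4.91 CPM in the steatotic ones, and *Gzma*, *Lck* and *Trbc2* stayed under 5 CPM.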
